A study of Homo sapiens with 4 samples.

Results

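The genes described here are the AP-1 factors FOS, FOSB, FOSL1, FOSL2, JUN, JUNB and JUND together with EGR1, taken from the table by gene symbol. These 8 genes were found among the 60725 genes of the count table, and all 8 had enough reads to be tested. RNA-seq was performed on RPE1 SunTag cells, a human line from retinal pigment epithelium made immortal by hTERT that also carries the SunTag system. Control cells received 10 nM of Silencer Select Negative Control No. 2 siRNA, and TOP2B knockdown cells received 10 nM of the Dharmacon siRNA pool against TOP2B. Both groups were transfected again after 48 h and harvested 72 h later, on day 5, with 2 biological replicates per group. The comparison bears on the question of whether altered transcription accompanies the loss of TOP2B, a DNA topoisomerase. The siRNA chemistry and the depletion form the same split of the libraries, so their parts in a difference cannot be told apart.

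AP-1 in its classical form is a dimer of a FOS family and a JUN family protein that binds DNA through a basic leucine zipper. Related basic leucine zipper proteins can also take part. FOS, FOSB, JUN, JUNB and EGR1 are classical immediate early genes, which are transcribed within minutes after serum, growth factors or stress and whose short-lived transcripts then decay, while FOSL1 and FOSL2 follow later and JUND is expressed more steadily. EGR1 is a zinc finger factor induced through serum response factor and its ternary complex partners. TOP2B has been linked to such genes because breaks made by the enzyme were reported at promoters of early response genes in stimulated neurons.

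Depth was similar, with between 20310259 and 23887013 counts per library. A value of 1 CPM (counts scaled to library size and TMM factor) therefore rests on 20.2 to 23.98 reads. TOP2B itself had 154.7 and 143.4 CPM in control and 15.3 and 13.3 CPM in knockdown cells, a log2(fold change) of -3.38 (adjusted p = 5.1e-06 by the quasi-likelihood test of edgeR). The keratins and vimentin of the line were abundant, with at least 852.5 CPM of KRT8 and 936.5 CPM of VIM in every library, and the pigment cell factor MITF had between 38.1 and 44.8 CPM. Of the mature pigment epithelium genes, RPE65, TYR and TTR had no read in any library, nor had the epithelial marker EPCAM. Others had few: 14 to 20 reads per library for BEST1, 7 to 31 for PMEL and 21 to 47 for SERPINF1. TYRP1 had at most 7 reads and RLBP1 at most 1. Genes encoded by mitochondrial DNA took 5.67% and 5.66% of the counts in the control libraries and 4.57% and 4.502% in the knockdown libraries, and no part of this in the results was tested.

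FOSB was the only member with an adjusted p below 0.05 in the edgeR test, and this did not hold in every alternative fit. FOS has a similar arrangement of motifs at a low transcript level, and EGR1 was the member that differed most between libraries. The promoters of FOSB, FOS and EGR1 are therefore shown. Each is the 250 bases before the RefSeq start site in GRCh38.p14, from 5′ to 3′, with matches to the motifs searched in capitals. The windows are chr19:45467746-45467995 (plus strand), chr14:75278578-75278827 (plus strand) and chr5:138465229-138465478 (plus strand).
FOSB: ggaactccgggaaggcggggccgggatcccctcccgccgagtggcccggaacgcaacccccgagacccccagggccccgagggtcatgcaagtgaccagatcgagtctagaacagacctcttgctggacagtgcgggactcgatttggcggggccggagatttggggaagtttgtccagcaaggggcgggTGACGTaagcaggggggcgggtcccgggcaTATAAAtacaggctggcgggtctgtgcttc
FOS: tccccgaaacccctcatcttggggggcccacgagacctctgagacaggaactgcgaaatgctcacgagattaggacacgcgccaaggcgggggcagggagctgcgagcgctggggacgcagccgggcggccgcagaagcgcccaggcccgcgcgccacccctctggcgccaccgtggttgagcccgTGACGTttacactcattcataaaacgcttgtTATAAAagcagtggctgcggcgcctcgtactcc
EGR1: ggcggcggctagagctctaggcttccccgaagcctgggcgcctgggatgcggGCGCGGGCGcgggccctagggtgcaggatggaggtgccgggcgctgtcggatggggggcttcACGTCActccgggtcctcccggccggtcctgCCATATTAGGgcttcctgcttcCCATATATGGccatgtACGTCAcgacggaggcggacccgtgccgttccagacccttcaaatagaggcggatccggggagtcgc

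The motifs were the AP-1 site (TGANTCA), the core of the cyclic AMP response element (TGACGT), the EGR site (GCGNGGGCG) and the CArG box bound by serum response factor, each on both strands, and the TATA box (TATAAA) on the gene's own strand. RefSeq promoters were at hand for 7 of the 8 genes, without FOSL1. The core TGACGT was present in 5 of these 7 windows, in FOS, FOSB, FOSL2, JUND and EGR1, against 7.10% of all 35116 promoters of the same length. In FOS, FOSB and FOSL2 it began 64, 60 and 66 bases before the start, and 1 of the matches in EGR1, on the other strand, began 67 bases before it. The TATA box was found in 3 of 7 windows (FOS, FOSB and JUNB), against 6.80% of all promoters. EGR1 held both CArG boxes found in these windows, CCATATTAGG and CCATATATGG, and also the 1 EGR site, while 1.16% and 8.42% of all promoters held these motifs. The AP-1 site was in 0 of 7 windows and in 6.57% of all promoters. The JUN window held no exact match to any of the motifs. Such matches describe the letters of these windows and were not tested for binding. Sites outside the windows and inexact matches were not searched. Distances depend on the RefSeq start, and the FOSL2 window (chr2:28392608-28392857) lies inside the gene as annotated by Gencode v44.

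**Figure D1:**
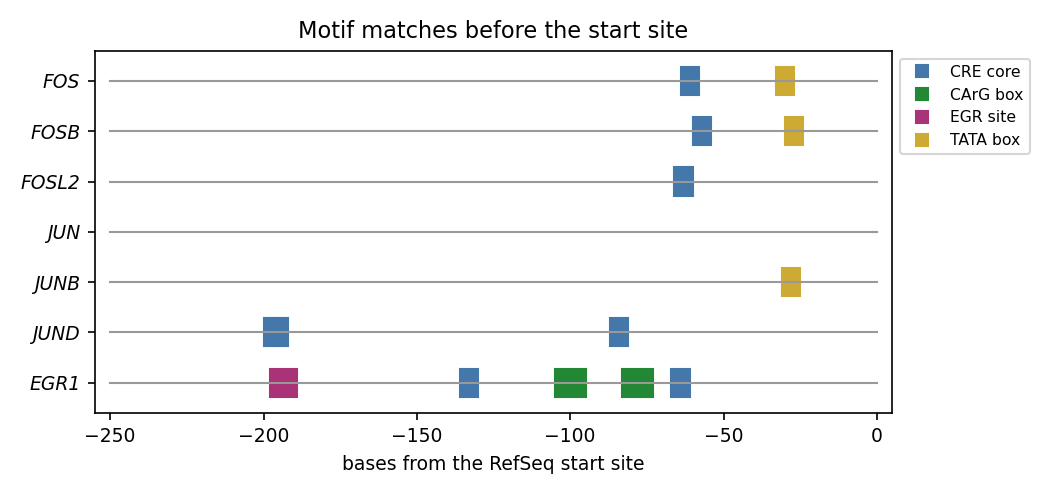
Position of motif matches (coloured boxes) in the 250 bases before the RefSeq start site of 7 genes, with distance in bases on the horizontal axis. The core of the cyclic AMP response element lies at a similar distance in FOS, FOSB, FOSL2 and EGR1. EGR1 also carries both CArG boxes found in these windows, and the JUN window has no exact match to the motifs searched.

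The genes were also compact. By the Gencode v44 annotation of GRCh38, 7 of the 8 spanned less than 10000 bases, from 1830 bases for JUNB to 8525 for FOSL1, and FOSL2 spanned 24870, while 17.9% of the 12542 protein-coding genes tested were under 10000 bases and their median was 34676. The canonical transcripts of JUN, JUNB and JUND have a single exon, as do 2.03% of those genes, EGR1 has 2 exons and each FOS family gene has 4. In the 3′ untranslated region all 8 genes had at least 1 copy of ATTTA, the core of AU-rich elements that mark short-lived transcripts, but so had 74.0% of tested genes. The longer form TTATTTATT was found in 2 of 8, FOS and FOSL2, against 9.79% of tested genes. It is printed here in capitals with its flanking bases, at chr14:75282060-75282088 for FOS and chr2:28416355-28416383 for FOSL2, both on the plus strand.
FOS: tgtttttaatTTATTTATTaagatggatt
FOSL2: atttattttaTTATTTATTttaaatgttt

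Per length of transcript, FOSL1 was the most abundant of the 8 genes in all 4 libraries. On the scale of CPM per kilobase of annotated exon, its level was 444.7 and 593.6 in control and 595.0 and 664.6 in knockdown cells, which is 18.6 to 33.1 times the level of FOSL2 and 7.45 to 14.3 times that of JUN in the same library. JUN followed with levels from 46.4 to 59.7, then JUND from 31.4 to 38.8 and FOSL2 from 20.1 to 23.9. These ranges did not overlap. JUNB stood below them at 5.60 to 8.12. FOSB, at 0.481 to 1.04, and EGR1, at 0.0931 to 1.47, overlapped each other, and FOS, at 0.187 to 0.236, lay within the range of EGR1. FOSL1 and JUN transcripts were thus abundant and FOS transcripts few in control and knockdown cells alike.

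**Figure D2:**
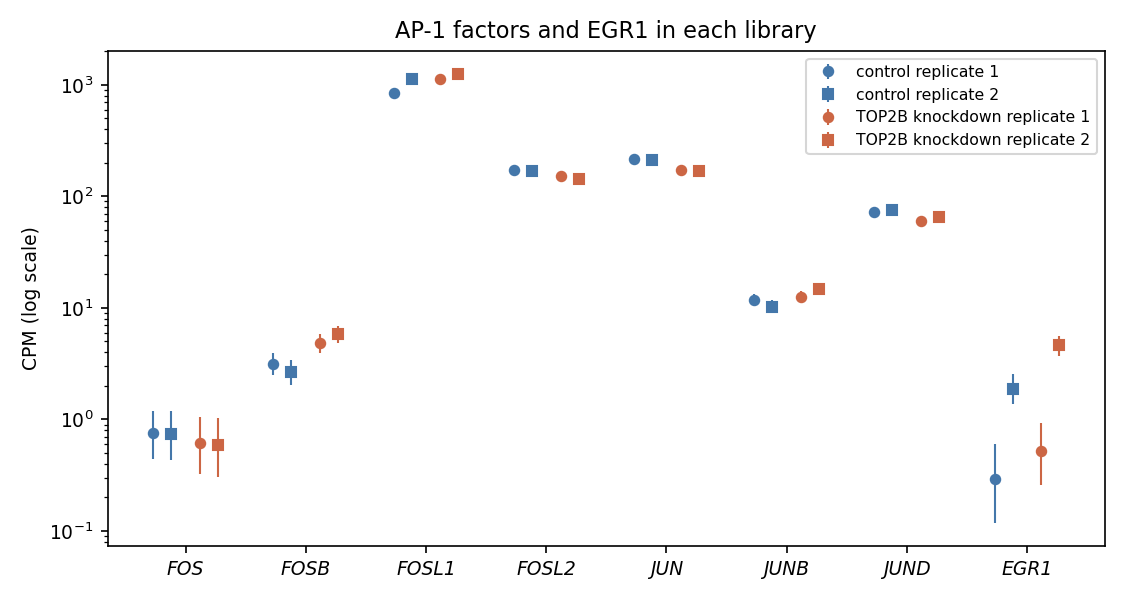
Level of each gene in each library in CPM on a log axis, with blue symbols for the control and orange symbols for the TOP2B knockdown replicates (circles, replicate 1, and squares, replicate 2) and bars for the exact 95% Poisson interval of the count. FOSL1 is at or above 839.1 CPM everywhere, FOS is at or below 0.751 CPM, and the replicates of EGR1 lie far apart.

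After TOP2B depletion, FOSB was called higher by edgeR and the other 7 genes did not pass the threshold. Of the 8 genes, 1 was called higher and 0 lower at an adjusted p below 0.05 (quasi-likelihood test of edgeR, adjusted by Benjamini-Hochberg over 15356 genes), while 2 genes, FOSB and JUN, had an unadjusted p below 0.05. With the Wald test of DESeq2 none was called. The called share of 12.5% was near the 10.8% of all tested genes that were called in either direction (6.66% higher and 4.18% lower). The median log2(fold change) of the 8 genes was 0.04, beside -0.0029 for all genes tested, with 4 genes above 0 and 4 below. For 7 of the 8 genes neither knockdown library fell between the control libraries, and both were on the same side of them, 3 times above and 4 times below. The same held for 54.3% of all genes tested.

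**Figure D3:**
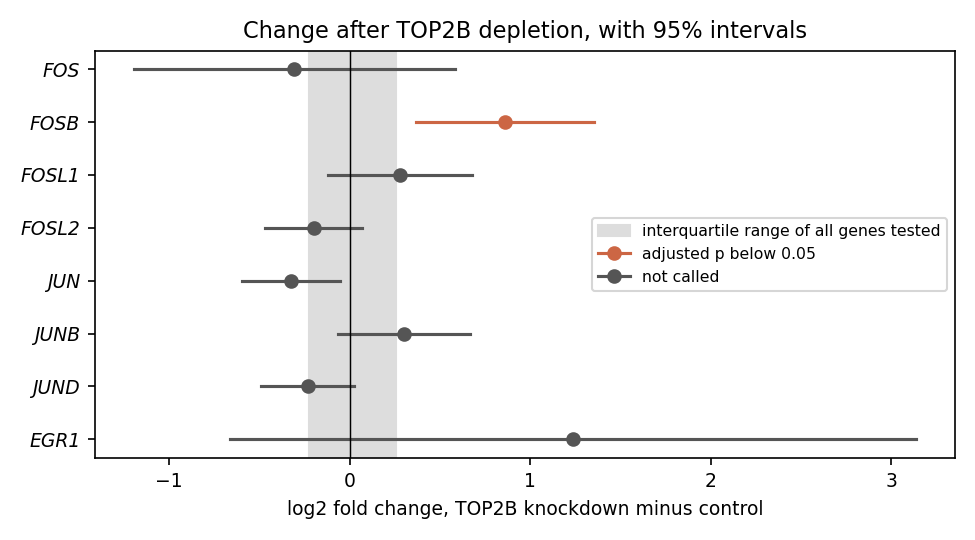
Change of each gene (log2(fold change), TOP2B knockdown minus control) with its 95% interval from edgeR, on a linear axis. FOSB alone is drawn as called, at 0.86, the intervals of FOSL1, FOSL2, JUN, JUNB and JUND stay within 1 of 0, and that of EGR1 is the widest. The grey band holds the interquartile range of all genes tested.

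Among the FOS family, FOSB (ENSG00000125740, chr19:45467995-45475179, plus strand) encodes a partner of JUN proteins that is best known from stimulated neurons. It had 3.17 and 2.67 CPM in control and 4.85 and 5.79 CPM in knockdown cells, from 76 and 61 against 103 and 117 reads. Both knockdown libraries were above both control libraries. The log2(fold change) was 0.86 (SE 0.22, 95% interval 0.37 to 1.35, adjusted p = 0.0348 by the quasi-likelihood test of edgeR), a 1.82-fold rise. The call was not held by the Wald test of DESeq2 (adjusted p = 0.0825). It was also lost without control replicate 2, at 0.75 (adjusted p = 0.119, same edgeR test), and without TOP2B knockdown replicate 2, at 0.72 (adjusted p = 0.159, same edgeR test). Over all alternatives the adjusted p ranged from 0.0012 to 0.159.

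FOSL1 (ENSG00000175592, chr11:65892049-65900573, minus strand) encodes FRA1, which lacks the transactivation domain of FOS. It had 839.1 and 1120 CPM in control and 1123 and 1254 CPM in knockdown cells. The lower knockdown library was almost level with the higher control library. The log2(fold change) was 0.28 with a 95% interval of -0.12 to 0.68 (adjusted p = 0.367 by the quasi-likelihood test of edgeR), so that the replicates differed by about as much as the groups. Without control replicate 1 the change was 0.09, and without control replicate 2 it was 0.50.

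FOSL2 (ENSG00000075426, chr2:28392448-28417317, plus strand) encodes the related FRA2. It had 171.0 and 168.7 CPM in control and 152.1 and 143.6 CPM in knockdown cells, and both knockdown libraries were below the control libraries. The log2(fold change) was -0.20 (95% interval -0.47 to 0.07, adjusted p = 0.33 by the quasi-likelihood test of edgeR).

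FOS (ENSG00000170345, chr14:75278826-75282230, plus strand), the prototype immediate early gene, was close to the limit of the data. It had 18 and 17 reads in the control libraries and 13 and 12 in the knockdown libraries, which is 0.751 and 0.745 CPM against 0.613 and 0.594 CPM. The exact 95% Poisson intervals, which cover counting error only, ran from 0.445 to 1.19 CPM in control replicate 1 and from 0.307 to 1.04 CPM in knockdown replicate 2 and overlapped over most of their length. The log2(fold change) of -0.31 had an interval of -1.20 to 0.58 (adjusted p = 0.678 by the quasi-likelihood test of edgeR), and a change of FOS was not detectable at this depth.

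Among the JUN family, JUN (ENSG00000177606, chr1:58776845-58784048, minus strand) encodes the strongest activator of the family. It had 216.4 and 210.9 CPM in control and 173.1 and 168.3 CPM in knockdown cells, and its replicates were close together in either condition. The log2(fold change) was -0.32 (SE 0.12, adjusted p = 0.123 by the quasi-likelihood test of edgeR), and the interval of -0.60 to -0.05 lay below 0 before adjustment. It was between -0.34 and -0.31 in the fits that left out 1 library each.

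JUND (ENSG00000130522, chr19:18279694-18281622, minus strand) had 72.4 and 74.7 CPM in control and 60.5 and 64.8 CPM in knockdown cells. Its log2(fold change) was -0.23 (95% interval -0.49 to 0.03, adjusted p = 0.239 by the quasi-likelihood test of edgeR). JUNB (ENSG00000171223, chr19:12791486-12793315, plus strand), a weaker activator that can oppose JUN, had 11.9 and 10.3 CPM in control and 12.4 and 14.9 CPM in knockdown cells. It had a log2(fold change) of 0.30 (95% interval -0.07 to 0.67, adjusted p = 0.284 by the quasi-likelihood test of edgeR). JUN and JUND thus lay below and JUNB above control in both knockdown libraries, without any of the 3 passing the threshold. HOOK2 on the opposite strand covers 14.2% of the exon bases of JUNB, and the column names call the libraries stranded and paired-end while the protocol gives single-end reads. Which strand was counted was not stated, so whether the JUNB counts hold HOOK2 reads cannot be told. No other member shares exon bases with another gene.

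The make-up of each family was compared on the scale of CPM per kilobase of exon, as the share of each gene in the summed level of its family. FOSL1 made up 94.7% and 96.1% of the FOS family level in control and 96.4% and 96.9% in knockdown cells. FOSL2 made up 5.09% and 3.81% against 3.44% and 2.92%, and FOSB made up at most 0.152% and FOS at most 0.0502% in any library. In the JUN family, JUN held 57.5% and 56.7% in control against 55.6% and 52.7% in knockdown cells. JUNB held 6.26% and 5.46% against 7.91% and 9.21%, a difference of 2.70 percentage points between the means, and JUND held between 36.2% and 38.1% in all libraries. The shares of JUND overlapped between the groups, and those of the other genes of both families did not. Shares within a family are parts of the same sum and so depend on each other. By CPM, the groups did not overlap for 54.3% of all genes tested. With 2 against 2 libraries the exact two-sided permutation test cannot give less than p = 0.333, so that it cannot call a share different.

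EGR1 (ENSG00000120738, chr5:138465479-138469303, plus strand) had the largest estimate and the widest spread of the 8 genes. It had 0.292 and 1.88 CPM in control and 0.518 and 4.61 CPM in knockdown cells, from 7 and 43 against 11 and 93 reads. Replicate 2 was higher than replicate 1 by 6.45-fold in control and by 8.89-fold in knockdown cells, so that the groups overlapped. Within each replicate number the knockdown library was the higher, by 1.78-fold in replicate 1 and 2.44-fold in replicate 2. Nothing in the labels says that a number marks a shared culture. In replicate 1 the exact 95% Poisson intervals overlapped, at 0.117 to 0.602 CPM in control and 0.259 to 0.928 CPM in knockdown cells. The log2(fold change) was 1.24 (SE 0.85, 95% interval -0.66 to 3.14, adjusted p = 0.401 by the quasi-likelihood test of edgeR). A single library, TOP2B knockdown replicate 2, decided its sign. Without TOP2B knockdown replicate 2 it was -1.06 (adjusted p = 0.287), without control replicate 1 it was 0.43 (adjusted p = 0.565), without TOP2B knockdown replicate 1 it was 2.10 and without control replicate 2 it was 3.10, and the last pair passed the threshold (all by the same edgeR test). Over all alternatives, DESeq2 included, the adjusted p lay between 2.62e-06 and 0.739.

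The difference of EGR1 between replicates stood out among all genes. In log2 CPM, with a prior count of 2, it was 2.37 between the control replicates, which 2 of the 15356 genes exceeded in size, and 2.95 between the knockdown replicates, which 0 genes exceeded. The other 7 genes differed by 0.42 or less between replicates of a condition. Of the 22 other immediate early genes tested, 9 were higher in replicate 2 in both conditions, 7 were lower in both and 6 were mixed. Their largest differences were those of NR4A2, at -1.09 in control and -0.66 in knockdown cells, IER3, at 0.61 in control, and DUSP1, at 0.52 in knockdown cells. These 3 genes were named after their values were seen. None of the 22 genes came near the differences of EGR1, and what differed between the cultures was not tested.

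**Figure D4:**
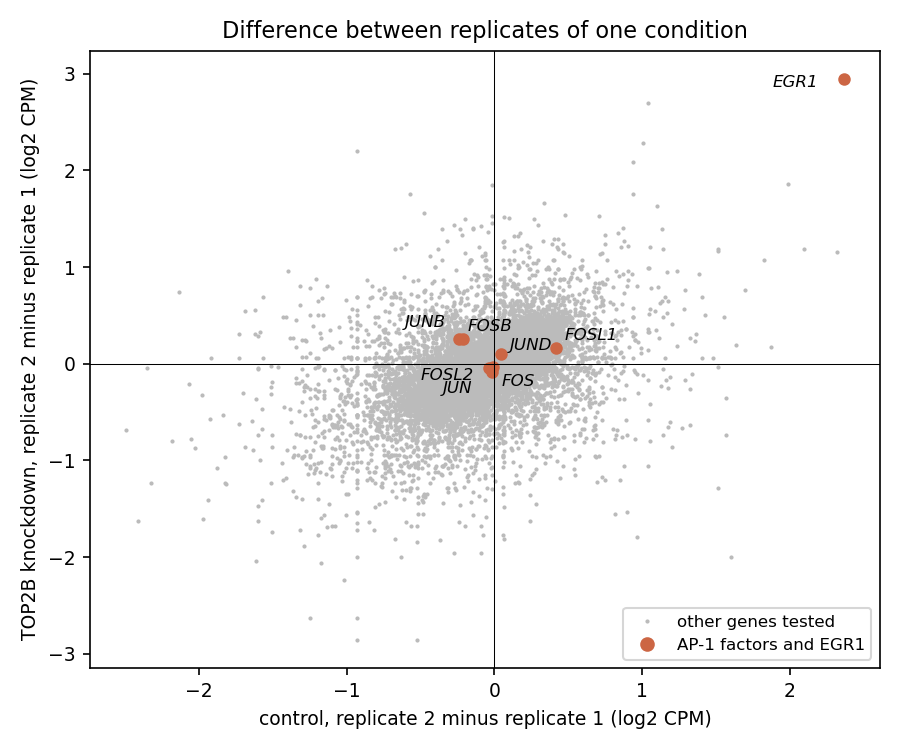
Difference between replicate 2 and replicate 1 in log2 CPM, in control (horizontal axis) and TOP2B knockdown (vertical axis), for all 15356 genes tested (grey) and for the AP-1 factors and EGR1 (orange). EGR1 lies at 2.37 and 2.95, away from the other 7 genes, which differ by at most 0.42.

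Among factors that pair or compete with AP-1, JDP2 was the called gene. Of 12 further basic leucine zipper genes (ATF, BATF, JDP2 and MAF), 10 were tested, 1 was called higher and 0 lower (10% of those tested, beside 10.8% of all genes), with log2(fold change) from -1.20 to 1.42 and a median of 0.03. JDP2 encodes a JUN partner known as a repressor of AP-1 sites. It had 2.63 and 2.23 CPM in control and 6.97 and 6.04 CPM in knockdown cells, and the groups did not overlap. Its log2(fold change) was 1.42 (SE 0.22, adjusted p = 0.00379 by the quasi-likelihood test of edgeR). JDP2 starts 148.9 kb downstream of the start of FOS on chromosome 14 (chr14:75427716-75474111). The stress factor ATF3 had 4.46 and 5.83 CPM in control and 4.10 and 6.34 CPM in knockdown cells, a log2(fold change) of 0.02 (adjusted p = 0.973 by the quasi-likelihood test of edgeR) that turned to -0.34 without TOP2B knockdown replicate 2 and to -0.16 without control replicate 1.

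The short word GCAACC was looked up because earlier results of these data had shown it to be frequent in transcripts that rose, so its values are a description only. Tested genes with the word GCAACC in the 3′ untranslated region (23.4%) had a median log2(fold change) of 0.06 and those without it one of -0.04. The 8 AP-1 and EGR1 genes hold 0 copies of the word, and JDP2 holds 3. The 3′ untranslated region of JDP2 is long, at 4632 bases, beside a median of 1357 for tested genes. Those of the 8 genes run from 500 bases for JUNB to 4869 for FOSL2. The part of this word in the rise of JDP2 was not tested.

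The rest of the EGR family was barely expressed. EGR2 had 4, 5, 4 and 6 reads and EGR3 5, 5, 7 and 1 reads in control replicates 1 and 2 and knockdown replicates 1 and 2, and EGR4 had 0 reads in all 4, which allows up to 3 reads per library. Of the corepressors that bind EGR proteins, NAB1 had 19.3 and 19.4 CPM in control and 25.2 and 22.8 CPM in knockdown cells, with a log2(fold change) of 0.31 (adjusted p = 0.162 by the quasi-likelihood test of edgeR). NAB2, itself an EGR1 target, had 23.6 and 19.3 CPM against 21.3 and 16.3 CPM, with one of -0.19 (adjusted p = 0.516, same test).

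Of 23 other immediate early genes, 22 were tested, 2 were called higher and 2 lower (18.2%, beside 10.8% of all genes), and the median log2(fold change) was 0.07. Earlier results of these data were known when this list was chosen, so that the share called is not independent evidence. CCN2, a matrix-associated growth factor, rose from 188.0 and 183.1 CPM to 277.8 and 300.7 CPM, by 0.64 (adjusted p = 0.0128 by the quasi-likelihood test of edgeR). PTGS2, the inducible cyclooxygenase, rose by 1.40 from 15 and 11 to 28 and 33 reads (adjusted p = 0.04, same test). Both calls were lost on leaving out control replicate 2 (adjusted p = 0.0721 for CCN2 and 0.154 for PTGS2) or knockdown replicate 2 (0.0889 and 0.143, same test). RHOB, a short-lived small GTPase, fell from 92.5 and 132.9 CPM to 48.5 and 43.1 CPM, with a log2(fold change) of -1.30 (adjusted p = 0.00206, same test). BTG2, an antiproliferative gene, had one of -0.43 (adjusted p = 0.0465, same test) and was not called with DESeq2 (adjusted p = 0.058) or in any fit without 1 library (between 0.000137 and 0.2 over all alternatives). IER2, which responds to the same stimuli as FOS, had 25.0 and 23.3 CPM against 22.8 and 21.3 CPM and did not pass (adjusted p = 0.566, same edgeR test).

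Upstream of these genes, 19 genes for serum response factor, its partners and the MAP kinases were all tested, with 1 called higher, 0 lower (5.26%, beside 10.8% of all genes) and a median log2(fold change) of 0.02. The 1 gene was RPS6KA1, a kinase downstream of ERK, which rose by 0.58 from 18.7 and 24.1 CPM to 30.7 and 33.2 CPM (adjusted p = 0.0351 by the quasi-likelihood test of edgeR), a call that was lost when control replicate 1 (0.41) or TOP2B knockdown replicate 2 (0.51) was left out. SRF had 37.5 and 44.7 CPM in control and 48.9 and 47.6 CPM in knockdown cells, with a log2(fold change) of 0.23 (adjusted p = 0.291, same test).

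Downstream, genes known as AP-1 targets moved in both directions. Of 24 listed (JUN and FOSL1 among them), 19 were tested, 2 were called higher and 2 lower (21.05%, beside 10.8% of all genes), and the median log2(fold change) was 0.02. The collagenase gene MMP1, a classical AP-1 target, had 4 and 3 reads in control and 37 and 21 reads in knockdown cells. Its mean lies below the 1 CPM asked of genes to be named, and it is given here because it completes the count. MMP1 reached the filter of 10 counts only in the 2 knockdown libraries. A fall from its control level could therefore not have been tested. VEGFA had 214.2 and 163.2 CPM in control and 302.3 and 316.1 CPM in knockdown cells. The lower genes were CCL2, with 2.92 and 1.93 CPM against 0.707 and 0.693 CPM, and SPP1, with 27.9 and 21.2 CPM against 17.2 and 11.3 CPM. By the same edgeR test, the call of VEGFA was lost without control replicate 2 (adjusted p = 0.159), and that of SPP1 without control replicate 1 (0.0625) or TOP2B knockdown replicate 2 (0.102). The called changes of these 4 genes were known when the list was written, so that their count is not independent evidence of a response.

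Of 12 listed EGR1 targets (EGR1 among them), 11 were tested, 4 were called higher and 2 lower (54.55%, beside 10.8% of all genes), and the median log2(fold change) was 0.14. FN1, which encodes fibronectin, had 1913 and 1431 CPM in control and 4162 and 3143 CPM in knockdown cells, a log2(fold change) of 1.13 (adjusted p = 0.0103 by the quasi-likelihood test of edgeR). The matrix protein gene THBS1 had 650.9 and 522.4 CPM against 2256 and 2477 CPM, and TGFB1 had 121.0 and 105.9 CPM against 193.6 and 190.9 CPM. The growth factor gene PDGFB fell from 5.63 and 5.17 CPM to 2.22 and 2.38 CPM, with a log2(fold change) of -1.23 (adjusted p = 0.00741, same test). These genes changed in opposite directions. EGR1 itself was not called, with a log2(fold change) of 1.24 and a wide 95% interval of -0.66 to 3.14. The part of EGR1 in the changes of these genes was not tested. THBS1, TGFB1, VEGFA and FGF2 were known to have changed when the list was written, so that the share called is not independent evidence. FN1 fell short without control replicate 2 (adjusted p = 0.0501) and without TOP2B knockdown replicate 1 (0.054), both by the same test.

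Of 10 heat shock genes, which respond to stress in culture, 1 was called higher and 2 lower (30%, beside 10.8% of all genes), with a median log2(fold change) of -0.23. The list was chosen with earlier results of these data known, so that the share called is not independent evidence. HSPB1 had 138.0 and 163.6 CPM in control and 288.6 and 365.9 CPM in knockdown cells, with a log2(fold change) of 1.12 (adjusted p = 0.00278 by the quasi-likelihood test of edgeR). HSPA1A and HSPA1B, whose reads are hard to assign because the genes are nearly identical, had -0.55 and -0.66 (adjusted p = 0.0402 and 0.0266, same test). HSPA1A was not called with DESeq2 (adjusted p = 0.0609) nor in any edgeR fit that left out 1 library (0.095 to 0.141), and HSPA1B was not called without control replicate 1 (0.073) or TOP2B knockdown replicate 2 (0.0888). The part of these genes in the values of the AP-1 factors and EGR1 was not tested.

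**Figure D5:**
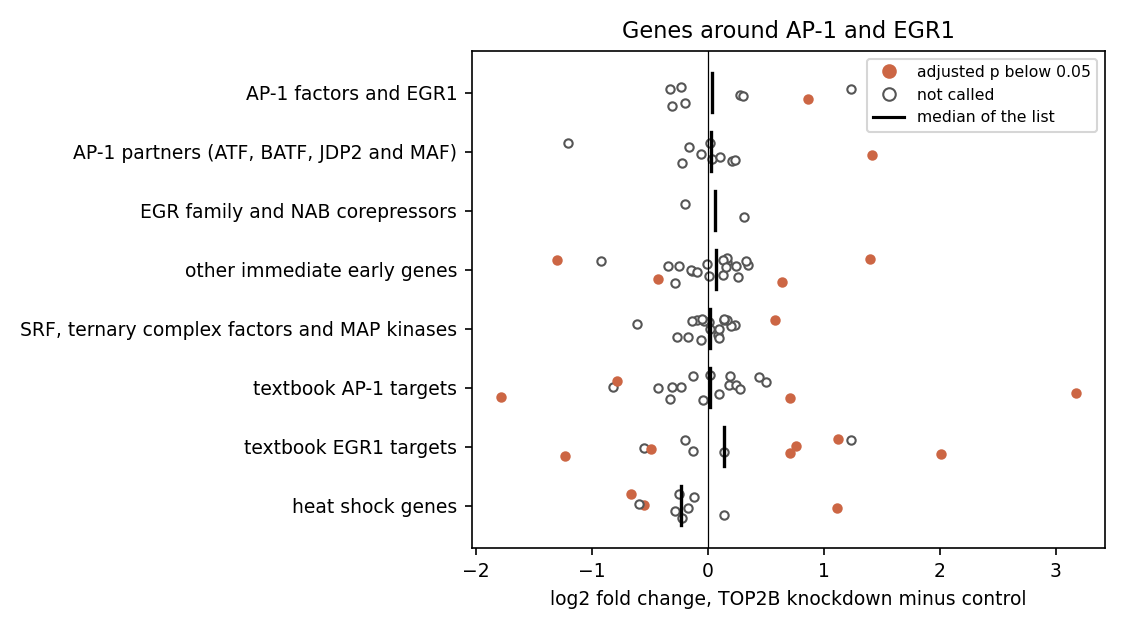
Log2(fold change) of each tested gene in the lists around AP-1 and EGR1 (TOP2B knockdown minus control), with filled circles for genes called at an adjusted p below 0.05, open circles for the others and a bar at the median of each list. The medians of the lists lie between -0.23 and 0.14, and called genes are found on both sides of 0 among early genes, AP-1 targets, EGR1 targets and heat shock genes.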

How the data were processed

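RNA-seq counts of 2 control and 2 TOP2B knockdown libraries were used, grouped by their titles. The authors aligned single-end 65-bp reads to GRCh38 with STAR 2.5.4a after FastQC 0.11.6 and took counts per gene while mapping, on the Gencode v24 annotation, and deposited these counts without normalization. The column names call the libraries stranded and paired-end, unlike the protocol, and the strand setting is not given in the sources used here. Each of the 4 columns stands in the table a second time, and these 4 repeats were not used. Symbols were matched by Ensembl ID to Gencode v44 for 93.1% of genes.

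The 15356 genes that reached 10 counts in 2 or more libraries were tested with edgeR 4.0.16 (glmQLFit and glmQLFTest, TMM, condition as the only term) in R 4.3.3, with Benjamini-Hochberg adjustment and a threshold of 0.05. Standard errors and 95% intervals were derived from the quasi-likelihood F statistic. Alternatives were DESeq2 1.42.0, other scalings and filters, the replicate number as a block, and fits without each library, in which the lone library of a group is assumed to vary like the other group. Shares were compared by an exact permutation test in scipy 1.17.1. The scripts were tested on simulated data. Members and gene lists were chosen with earlier results of these data known. Genes named beside the members are TOP2B, up to 4 called genes of each list with the largest change and a mean of at least 1 CPM, and a fixed set of relatives.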

Additional observations from a re-analysis of the deposited data

How the results depend on the processing

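Direction was kept for 7 of the 8 members under every alternative run, and for EGR1 under all but one. Without one library in turn, the log2(fold change) ranged from -0.32 to -0.30 for FOS, 0.72 to 0.99 for FOSB, 0.09 to 0.50 for FOSL1, -0.24 to -0.17 for FOSL2, -0.34 to -0.31 for JUN, 0.15 to 0.43 for JUNB, -0.30 to -0.18 for JUND and -1.06 to 3.10 for EGR1, the lowest being the reversed value without TOP2B knockdown replicate 2. The numbers of genes called among the members and in several lists moved between these fits. Each fit leaves a group with a single library, so these numbers are not read as a result. The lone library is assumed to vary like the other group.

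With DESeq2, FOSB had 0.85 (adjusted p = 0.0825) and fell below the threshold, so that 0 members were called higher. Early genes called were 1 higher and 1 lower, and heat shock genes 1 lower. Of the 13275 genes that received an adjusted p, 917 were higher and 645 lower. FOS, PTGS2 and MMP1 received no adjusted p from it. Without a filter on low counts, EGR1 passed at 1.22 (adjusted p = 0.00133), which made 2 members higher. AP-1 partners were then 1 lower, AP-1 targets 5 higher and markers 1 higher and 1 lower. Over all genes, 1358 of 29440 tested were higher and 985 lower, against 1023 and 642 of 15356 with the filter. At a mean of at least 100 counts FOS, FOSB, EGR1, JDP2, PTGS2, MMP1, CCL2 and PDGFB were not tested, and SPP1 was tested but lost its call (adjusted p = 0.07). The calls were then 0 members higher, 0 AP-1 partners higher, 1 early gene higher, 1 AP-1 target higher and 0 lower, and 1 EGR1 target lower. Of the 10893 genes tested, 825 were higher and 447 lower.

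The replicate numbers of both groups match, but nothing in the labels says that a number marks a shared culture, and there are only 2 pairs. Deviations of same-numbered libraries from their group means correlated at 0.48 across 15356 genes. Of the 15356 genes tested, 3440 were higher and 3346 lower with the replicate number as a block, against 1023 and 642 without the block. In the blocked fit FOSL1 (0.29), EGR1 (1.22), FOSL2 (-0.20), JUN (-0.32) and JUND (-0.23) passed the threshold beside FOSB, so that 3 members were higher and 3 lower. AP-1 partners were 2 higher and 2 lower, EGR family and NAB genes 1 higher, early genes 8 higher and 6 lower, upstream genes 5 higher and 2 lower, AP-1 targets 7 higher and 6 lower, EGR1 targets 4 lower, heat shock genes 2 higher and 7 lower and markers 3 higher and 3 lower. For the other named genes, 202 of 233 comparisons kept their direction and side of the threshold, the exceptions being 27 lost calls (24 of them without one library), 2 gained under the block and the 2 changes of sign of ATF3, to -0.16 and -0.34, within a range of -0.34 to 0.31 without one library. Using the canonical transcript length moved the difference in each family share by less than the larger of the SDs of both groups, while for FOS (-0.0148 to -0.0203 percentage points) and FOSB (0.0471 to 0.0625) it moved by more than the SD of the knockdown libraries.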
